A study of Mus musculus with 19 samples.

Results

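Islets of 2 related mouse strains were cultured in low or high glucose, and the question addressed here was whether the 2 strains answered the rise in glucose to the same extent. All 19 samples of the series entered the comparison, grouped by strain and glucose from their titles: 5 B6 mice in low glucose, 5 B6 mice in high glucose, 5 BLKS mice in low glucose and 4 BLKS mice in high glucose. B6 stands for C57BL/6 and BLKS for C57BLKS/J, a strain that shares much of its genome with B6 and is known for severe diabetes when it carries a leptin receptor mutation such as Lepr db/db. Such a mutation is not named in the labels of any sample. Every mouse was 12 weeks old, and all islets spent 48 h at 11 mM glucose before 24 h at 5 mM glucose (low) or 20 mM glucose (high). Each sample came from 1 mouse, islets were not pooled, and the islets contained all their cell types, so that a level is an average over beta cells, other endocrine cells and supporting cells.

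Expression was measured on 20 Agilent whole mouse genome arrays with 2 colours, each carrying islet RNA of a B6 mouse in one dye and of a BLKS mouse in the other, except for a pair scanned later, which held B6 high glucose mouse 5 beside a repeat of B6 low glucose mouse 1. For every probe, 1 log2 processed signal per mouse was formed from both dyes. The response of a strain was the mean of its high glucose mice minus the mean of its low glucose mice, and the quantity examined was the BLKS response minus the B6 response. A negative difference means that expression in BLKS rose less, or fell more, than in B6. The test was limma on 29326 probes, with Benjamini-Hochberg adjustment at 0.05, and "called" below means past that threshold.

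Glucose entering the beta cell is phosphorylated and metabolised, and its products switch on genes through the carbohydrate response factor ChREBP, encoded by Mlxipl. Txnip and Arrdc4 are known targets of this factor. Stimulated beta cells also make large amounts of proinsulin, which is folded, trimmed and packed in the endoplasmic reticulum (ER), and cells under a protein load raise ER chaperones and the stress factors ATF4 and CHOP.

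A pair of libraries went against their labels and are treated separately throughout. On a scale set by 106 probes that differed at least 2-fold between the strains in high glucose, where 0 is the mean of B6 and 1 the mean of BLKS, the library labelled B6 in low glucose, mouse 4, lay at 0.99 and the library labelled BLKS in low glucose, mouse 5, lay at -0.0125. The other low glucose mice lay between -0.037 and 0.0469 in B6 and between 0.931 and 1.003 in BLKS. The high glucose mice set the scale and therefore lie near its ends by construction. Values are therefore given without both libraries (17 mice) and with all labelled samples (19 mice). Median processed signals of the arrays ranged from 75.1 to 103 in Cy3 and from 75.0 to 103 in Cy5, and 37108 to 41534 spots in Cy3 and 25573 to 34798 in Cy5 were well above background. Spots for the hormones insulin (Ins1, Ins2), amylin (Iapp) and glucagon (Gcg) were saturated in 40 of 40 channels, so the tissue label was borne out by bright islet hormones, but no change in these hormones could be measured.

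Few genes passed the test for an unequal response, and among them Slc5a10, a sugar transporter gene, rose less in BLKS than in B6. With 17 mice, 17 probes differed in response, all 17 more negative in BLKS (0.058% of the probes tested), and 0 were more positive (0.0%). The 17 probes stood for 13 named genes and 1 transcript without a symbol. With all 19 mice, 12 probes were called, of which 8 were more negative in BLKS (0.0273%) and 4 more positive (0.0136%). Quantile normalization gave 19 more negative and 8 more positive probes with 17 mice, and 6 and 5 with 19 mice. Values with no scaling between arrays gave 16 and 0 with 17 mice, and 5 and 0 with 19 mice. Genes called in both sets included Slc5a10, Meltf, Meox1, Mrpl50 and Hnrnpa1. At an unadjusted p under 0.05, 1513 probes passed with 17 mice and 1295 with 19 mice.

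B6 and BLKS mice of the same number and glucose shared a pair of arrays with the dyes swapped, and the spread between array pairs is removed when the pair enters the model as a block. With the pair as a random block, 272 probes were called with 17 mice (119 more positive and 153 more negative in BLKS) and 236 with 19 mice (114 and 122). On 1 probe per gene this came to 197 of 16000 genes with 17 mice (1.23%). All 17 and all 12 unblocked calls were among the blocked ones, and 129 probes were called with the random block in both sets of mice, 47.4% of the 272 and 54.7% of the 236, in the same direction for 129 of 129. With the pair as a fixed block, 8 probes were called with 17 mice and 47 with 19 mice, including 7 of the 17 and 11 of the 12 unblocked calls. Genes called only with a random block are named as such below.

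Of the called genes, Slc5a10 had the most unequal response. It encodes a sodium-dependent sugar transporter. Its log2 signal in B6 was 7.83, 7.79, 7.87, 7.61 and 7.79 in low glucose (mice 1 to 5) and 9.78, 9.83, 9.80, 10.03 and 9.57 in high glucose. In BLKS it was 7.58, 7.54, 7.45, 7.58 and 7.83 in low glucose and 8.14, 7.89, 7.83 and 8.47 in high glucose. Every B6 mouse in high glucose lay above every BLKS mouse in high glucose, whereas the low glucose mice of both strains lay close together. With 17 mice Slc5a10 rose 3.95-fold in B6 and 1.46-fold in BLKS, a difference of -1.43 on the log2 scale (SE 0.148, 95% interval -1.75 to -1.12, limma adjusted p = 0.000388). The difference was -1.54 with 19 mice (limma adjusted p = 0.000182), and it was called with the array pair as a random (adjusted p = 3.56e-06) or fixed block (adjusted p = 0.0155). The strains differed by -1.72 (BLKS minus B6) in high glucose and by -0.28 in low glucose.

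Klf10, a zinc finger repressor induced early by growth factors and by glucose, was unequal in the same direction. Its log2 signal rose from 8.49, 8.15, 8.29, 8.14 and 8.44 to 9.40, 9.35, 9.25, 9.54 and 9.28 in B6. In BLKS the mice stood at 8.01, 8.02, 8.15, 8.17 and 8.23 in low and 8.35, 8.44, 8.38 and 8.70 in high glucose. With 17 mice the folds were 2.03 in B6 and 1.30 in BLKS, and the difference of -0.64 missed the threshold (limma adjusted p = 0.0564). It passed in 7 of 28 alternative settings, among them the array pair as a random block (0.00100). With 19 mice the difference was -0.71 (limma adjusted p = 0.0368), and 4 of 19 leave-one-out fits kept the call.

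**Figure D1:**
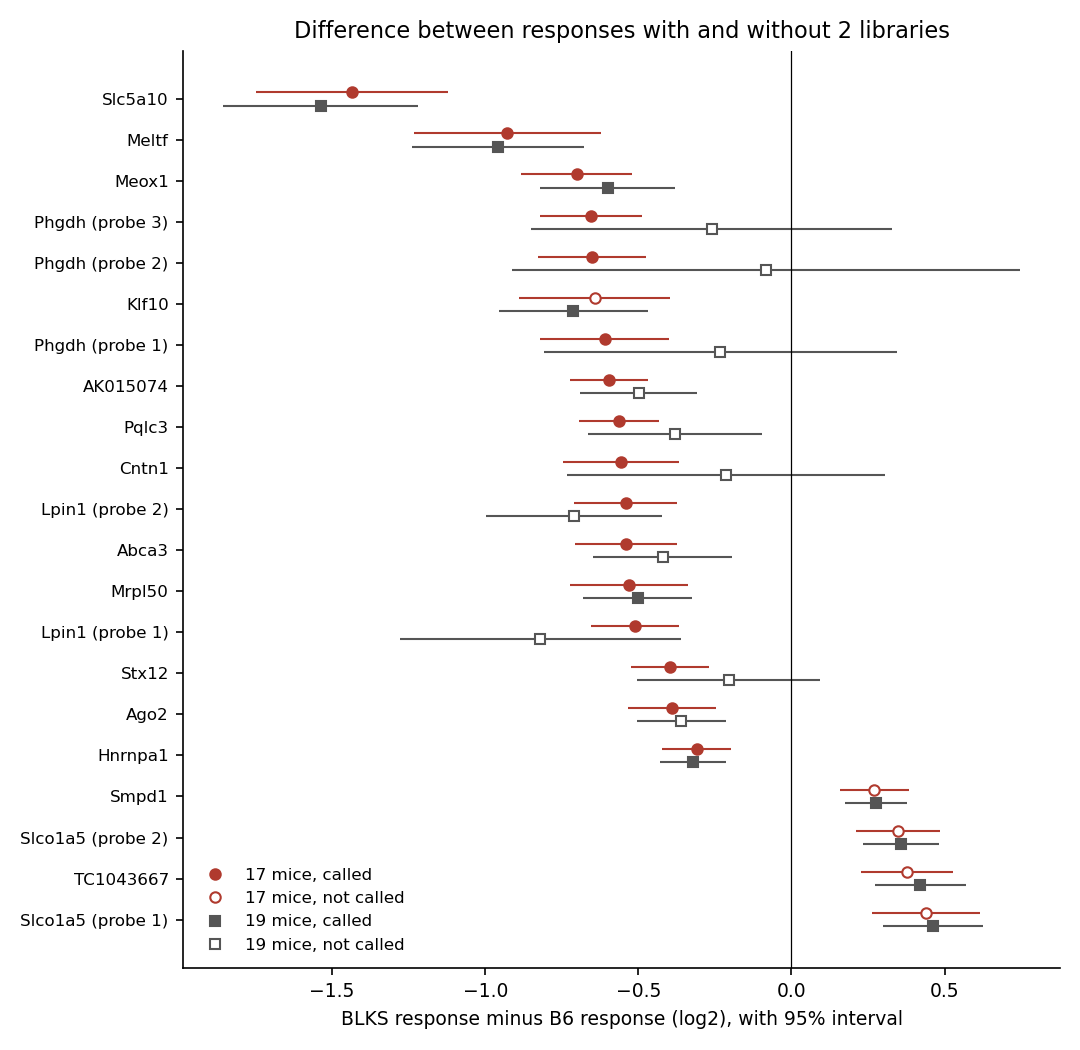
Difference between the BLKS and B6 responses (log2, horizontal axis) for the reported probes called in either set of mice, with circles for 17 mice, squares for 19 mice, filled symbols where limma called the difference and bars for 95% intervals. Slc5a10 lies farthest below 0 at -1.43 with 17 mice, followed by Meltf at -0.93, and the probes above 0 (Slco1a5, Smpd1 and TC1043667) were called with 19 mice and not with 17; TC1043667 was not well above background in low glucose.

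For Meltf and Meox1 the response passed the test in only one strain. Meltf, a cell-surface iron-binding protein of the transferrin family, fell 1.84-fold in BLKS, and its B6 response was 0.05 on the log2 scale. The B6 values were 8.73, 9.13, 8.91, 8.71 and 8.62 in low and 8.96, 8.87, 8.91, 8.79 and 8.93 in high glucose. The BLKS values were 9.02, 9.15, 9.003, 9.11 and 9.09 in low and 8.19, 8.02, 8.53 and 8.02 in high glucose, with all 4 high glucose mice below all 5 low glucose mice. The difference was -0.93 with 17 mice (SE 0.145, limma adjusted p = 0.0174; random block 0.000711, fixed block 0.0804) and -0.96 with 19 mice (0.0147). The Meltf call with 17 mice was lost without BLKS mouse 2 or mouse 4 in low glucose, and that with 19 mice without B6 mouse 1 or BLKS mouse 1 or 2 in high glucose. Meox1, a homeobox transcription factor, rose 1.48-fold in B6 with values of 7.38, 7.33, 7.18, 7.45 and 7.23 in low and 7.83, 7.76, 7.89, 7.84 and 7.89 in high glucose. In BLKS Meox1 stood at 7.50, 7.46, 7.56, 7.67 and 7.22 and 7.23, 7.40, 7.49 and 7.51, and the groups overlapped. The Meox1 difference was -0.70 with 17 mice (limma adjusted p = 0.00155; random block 0.000129, fixed block 0.0762) and -0.60 with 19 mice (0.0470), where 1 of 19 leave-one-out fits kept the call, and a second Meox1 probe gave -0.30.

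Several genes were unequal with 17 mice and not with 19, and Phgdh and Lpin1 were among them. Phgdh is the first enzyme of serine synthesis. Its log2 signal in B6 was 10.64, 10.67, 10.48, 11.70 and 10.47 in low and 11.26, 11.38, 11.28, 11.33 and 11.31 in high glucose. In BLKS it was 11.77, 11.57, 11.50, 11.58 and 10.77 in low and 11.65, 11.73, 11.65 and 11.76 in high glucose. The library labelled B6 mouse 4 stood with the BLKS mice and the library labelled BLKS mouse 5 with the B6 mice. Without both, Phgdh rose 1.68-fold in B6 and by 0.09 on the log2 scale in BLKS, a difference of -0.65 (limma adjusted p = 0.00155; random block 1.54e-05, fixed block 0.0279). The other 2 Phgdh probes gave -0.65 and -0.61 (limma adjusted p = 0.00271 and 0.0266). The strain difference, BLKS minus B6, narrowed from 1.04 in low glucose to 0.38 in high glucose. With 19 mice the Phgdh difference was -0.26 (limma adjusted p = 0.9999).

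Lpin1, a phosphatidate phosphatase of glycerolipid synthesis, also rose in B6, and its BLKS response did not pass the test. The first probe read 7.51, 7.49, 7.50, 6.76 and 7.60 in low and 7.86, 7.97, 8.08, 8.02 and 7.89 in high glucose in B6. In BLKS it read 6.81, 6.75, 6.85, 6.74 and 7.56 in low and 6.67, 6.66, 6.76 and 6.76 in high glucose. The BLKS mice lay below the B6 mice in both glucose conditions except for the libraries that went against their labels, which lay with the other strain. With 17 mice Lpin1 rose 1.35-fold in B6 and stood at -0.07 in BLKS (difference -0.51, limma adjusted p = 0.00333), and a second probe gave -0.54 (0.0112). With 19 mice these differences were -0.82 (0.484) and -0.71 (0.0941), and the other Lpin1 probes gave -0.49 and -0.23 with 17 mice.

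Further genes of the 17-mouse comparison rose in B6 and missed the threshold in BLKS. Abca3, a lipid transporter, rose 1.49-fold in B6 (difference -0.54, limma adjusted p = 0.0103), and its other probes gave -0.32 (0.538) and -0.0187 (0.9999). Cntn1, a cell adhesion protein of neurons, rose 1.34-fold (-0.56, 0.0253), and its other probe gave -0.28 (0.726). Pqlc3 rose 1.42-fold (-0.56, 0.000545). Mrpl50, a protein of the mitochondrial ribosome, rose 1.55-fold (-0.53, 0.0413), and its other probe gave -0.38 (0.160). The unnamed transcript AK015074 rose 1.66-fold (-0.60, 0.000388). The differences of Stx12, Ago2 and Hnrnpa1 were smaller, and these genes fell in BLKS. Stx12, a syntaxin of endosomes, fell 1.26-fold in BLKS (-0.40, limma adjusted p = 0.0149). Ago2, the effector of small RNA silencing, rose 1.15-fold in B6 and fell 1.14-fold in BLKS (-0.39, 0.0454), whereas its other 3 probes gave -0.06, -0.07 and -0.19. Hnrnpa1, a splicing factor, fell 1.25-fold in BLKS (-0.31, 0.0413), and its other 3 probes lay between 0.005 and 0.09. Leaving out single mice kept the calls of Slc5a10, Pqlc3, Abca3, Meox1, Stx12, AK015074, both called Lpin1 probes and 2 of 3 Phgdh probes in 17 of 17 fits, and those of Ago2, Hnrnpa1 and Mrpl50 in 3 of 17. Cntn1 was called in 13 of 17 and the third Phgdh probe in 9 of 17.

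A response larger in BLKS was called with 19 mice for Slco1a5, an organic anion transporter, which rose 1.38-fold in B6 and 1.89-fold in BLKS. The difference was 0.46 (limma adjusted p = 0.0368), and a second probe gave 0.36 (0.0368). With 17 mice these were 0.44 (0.0616; random block 0.00408) and 0.35 (0.0601), and 2 of 19 leave-one-out fits kept each 19-mouse call. Smpd1, the lysosomal acid sphingomyelinase, gave 0.28 with 19 mice (0.0470) and 0.27 with 17 (0.0746), a difference small enough for it to count as alike by the 1.5-fold criterion given below. The last probe called above 0, of the transcript TC1043667 without a symbol, was well above background in 0 of 5 low glucose mice of each strain, so its size is not read. Stc2, a secreted glycoprotein induced by ER stress, rose 1.76-fold in BLKS against 1.23-fold in B6 with 17 mice (0.52, limma adjusted p = 0.0761), and was called with a random block (0.55, 0.00133).

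**Figure D2:**
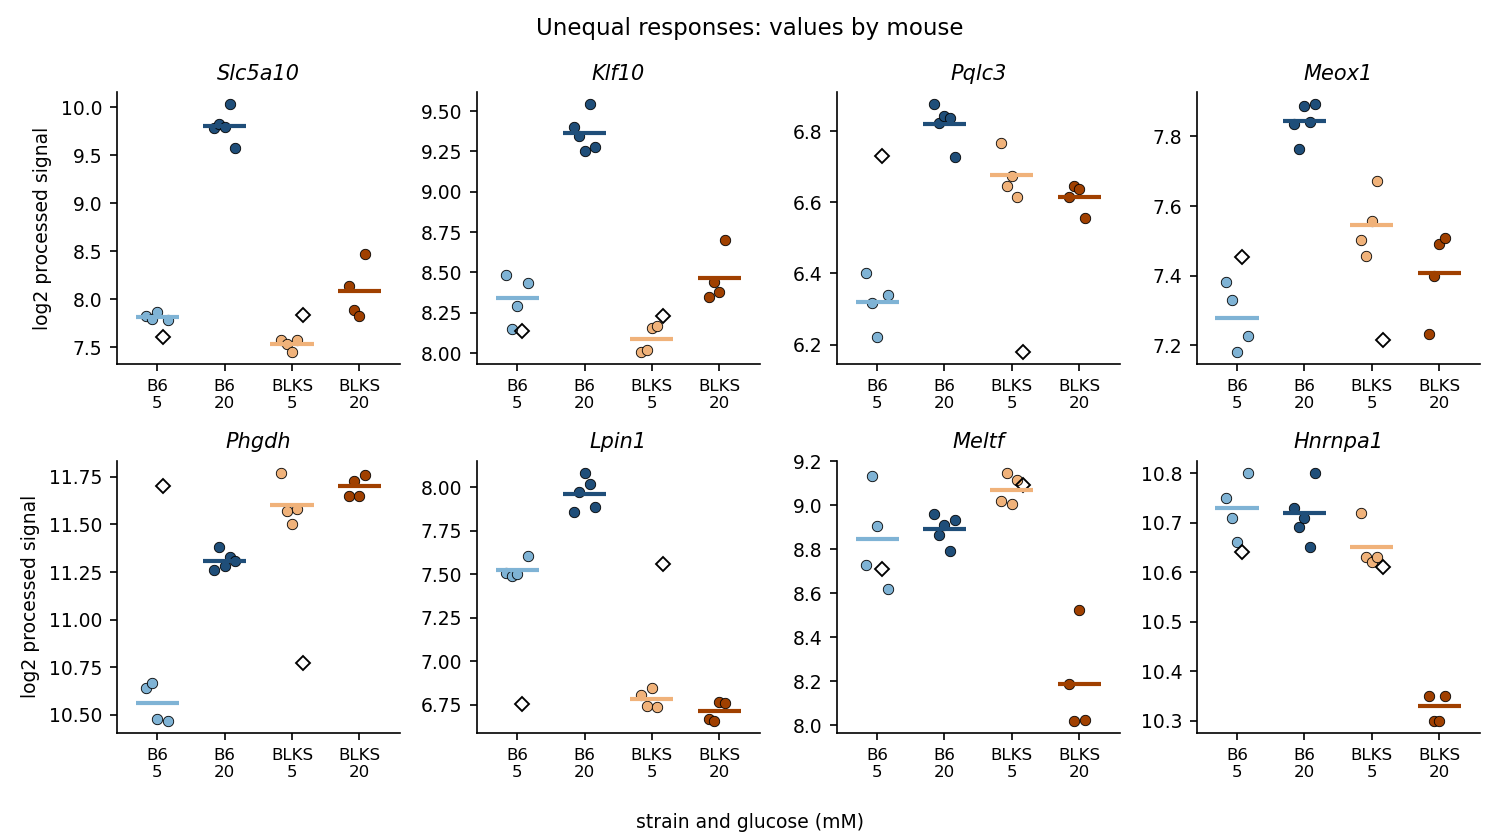
Log2 processed signal of 8 genes in each mouse, by strain and glucose, with open diamonds for the 2 libraries that went against their labels and lines for the means of the other 17 mice. For Slc5a10 and Klf10 the high glucose B6 mice stand above all high glucose BLKS mice; for Phgdh and Lpin1 the diamonds sit with the other strain.

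The gene lists describe how chosen functions responded in each strain, and few of their members were called for the difference without a block. Counts below are over 1 probe per gene, 17 mice, and are set beside all 16000 genes, of which 7.96% rose and 7.29% fell in B6, 6.58% rose and 5.64% fell in BLKS, and the median difference was 0.0013. The list of ATF4, CHOP and stress response genes held 20 genes, of which 13 rose in B6 and 5 in BLKS, where 1 fell. Without scaling 8 and 4 rose, and in the authors' unscaled values 5 and 4. Its median response was 0.29 in B6 and 0.13 in BLKS, and 16 of 20 differences lay below 0, with a median of -0.21. Phgdh was the only member called for the difference without a block. Asns, asparagine synthetase, stood at 0.46 in B6 and 0.11 in BLKS (random block adjusted p = 0.00980), Cebpb at 0.31 and -0.25 (0.0128), and Herpud1, an ER degradation factor, at 0.19 and -0.15 (0.0187). A second Cebpb probe stood at 0.24 and -0.02 (difference -0.26, random block adjusted p = 0.234), and its difference was -0.06 with 19 mice. The random block called 4 members below 0 and 1 above 0 with 17 mice, and 0 below and 1 above with 19 mice. With 19 mice the list had 2 risers in B6 and 4 in BLKS, and the median difference was -0.02, with 11 of 20 below 0, so the shift of this list rests on leaving out the doubted libraries.

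The carbohydrate response list of 20 genes had 5 that rose in B6 and 4 that rose in BLKS, and 15 of 20 differences lay below 0. Its median response was 0.14 in B6 and 0.05 in BLKS (-0.01 in BLKS without scaling), and its median difference of -0.06 turned to 0.01 in the authors' unscaled log2 values. Klf10 was called with a random block. Other members rose in both strains. Arrdc4, a relative of Txnip that limits glucose uptake, rose by 0.67 in B6 and 0.39 in BLKS, and Fasn, fatty acid synthase, by 0.20 and 0.21, both alike by the criterion given below. Of the 20 glycolysis genes, 2 rose and 2 fell in B6, and 0 rose and 1 fell in BLKS. The medians were 0.38 and 0.08, and 16 of 20 differences lay below 0. Pkm, pyruvate kinase, stood at 0.42 and 0.14, and Gpi1, the isomerase after glucokinase, at 0.56 and 0.07, without a call for either difference. Slc2a2, the glucose transporter GLUT2, fell in both strains, to a response of -0.42 in B6 and -0.69 in BLKS. A second Slc2a2 probe gave -0.41 and -0.43. With 17 mice the B6 fall of the first probe was called in 11 of 27 settings and its BLKS fall in 27 of 27. The precision of this list was low, since 6 of 20 intervals lay within 1.5-fold.

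Immediate early genes, the first transcription factors made after a stimulus, included 7 of 20 that rose in B6 and 1 in BLKS, with a median difference of -0.24 and 16 of 20 below 0. On the log2 scale Fos stood at 0.81 in B6 and -0.01 in BLKS (difference -0.83, random block adjusted p = 0.0306), Nr4a1 at 0.79 and 0.04 (-0.75, 0.00415), and Crem at 0.53 and 0.05 (random block 0.0296). These calls were made with a random block and 17 mice, not with 19 mice, where the adjusted p values were 0.611, 0.258 and 0.456. Acute phase and NF-kB genes, which respond to inflammation, included 7 of 22 that rose in B6 and 3 in BLKS, with a median difference of -0.40 and 20 of 22 below 0; 0 were called for the difference. With 19 mice 4 rose in B6 and 3 in BLKS, and the median difference shrank to -0.11, with 15 of 22 below 0. Complement C3 stood at 0.93 and 0.50, and Cfb at 1.11 and 0.57. Lcn2, a siderophore-binding protein, stood at 3.33-fold and 1.81-fold with 17 mice (-0.88), and its BLKS rise was called in 1 of 27 settings. The library labelled B6 low mouse 4, left out here, was the highest of its group at Lcn2 (8.71). In the neutrophil list 3 of 11 markers were measured, with median responses of 0.30 in B6 and 0.13 in BLKS but a median difference of 0.07 (Mmp9 lay at -0.28 and Ltf at 0.07). S100a9, a calcium-binding protein of neutrophils, ranged on the log2 scale from 6.01 to 7.96 in B6 and from 7.75 to 9.08 in BLKS in high glucose. In low glucose it was well above background in 2 of 5 B6 mice and 4 of 5 BLKS mice, so no fold is given, and its difference was not called (limma adjusted p = 0.758).

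Markers of cells other than endocrine cells moved with some of these lists. The summed signal of 10 stellate and fibroblast markers ranged from 3130 to 4914 in B6 low, 4153 to 7875 in B6 high, 2668 to 3584 in BLKS low and 2295 to 4015 in BLKS high glucose with 17 mice. All 10 differences lay below 0, and Dcn and Lum, proteoglycans of fibroblasts, rose in B6. The 78 collagen and matrix genes had 60 differences below 0, a median of -0.06, and 0 calls. In bulk RNA, fewer cells of a type and less RNA per cell cannot be told apart, and the part of these cells in the acute phase or matrix values was not tested. Endothelial sums ranged from 2905 to 3567, 2517 to 2933, 2587 to 2920 and 2024 to 2333 in the same order of groups, and macrophage sums from 5577 to 6926, 4481 to 5904, 4471 to 4997 and 3723 to 4526. Sums of 2 of 6 mesothelial markers ranged from 9142 to 9955 in B6 low and 10370 to 11590 in B6 high glucose, without overlap, and from 10150 to 11670 and 10040 to 11630 in BLKS. Of these, Krt18, an epithelial keratin, rose in B6 (0.31) and stood at 0.04 in BLKS (random block adjusted p = 0.0219, and 0.516 with 19 mice). The other measured marker went the other way with 17 mice. Median responses of the 2 markers were -0.04 in B6 and -0.16 in BLKS, with 1 difference above 0 and 1 below. The part of mesothelial cells in the results was not tested. Sums of 8 of 9 duct markers overlapped between low and high glucose in both strains. Sums of 14 of 19 acinar markers overlapped between low and high glucose in both strains. Sums of beta, alpha, delta and PP cell markers are dominated by saturated hormone spots and are not compared.

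**Figure D3:**
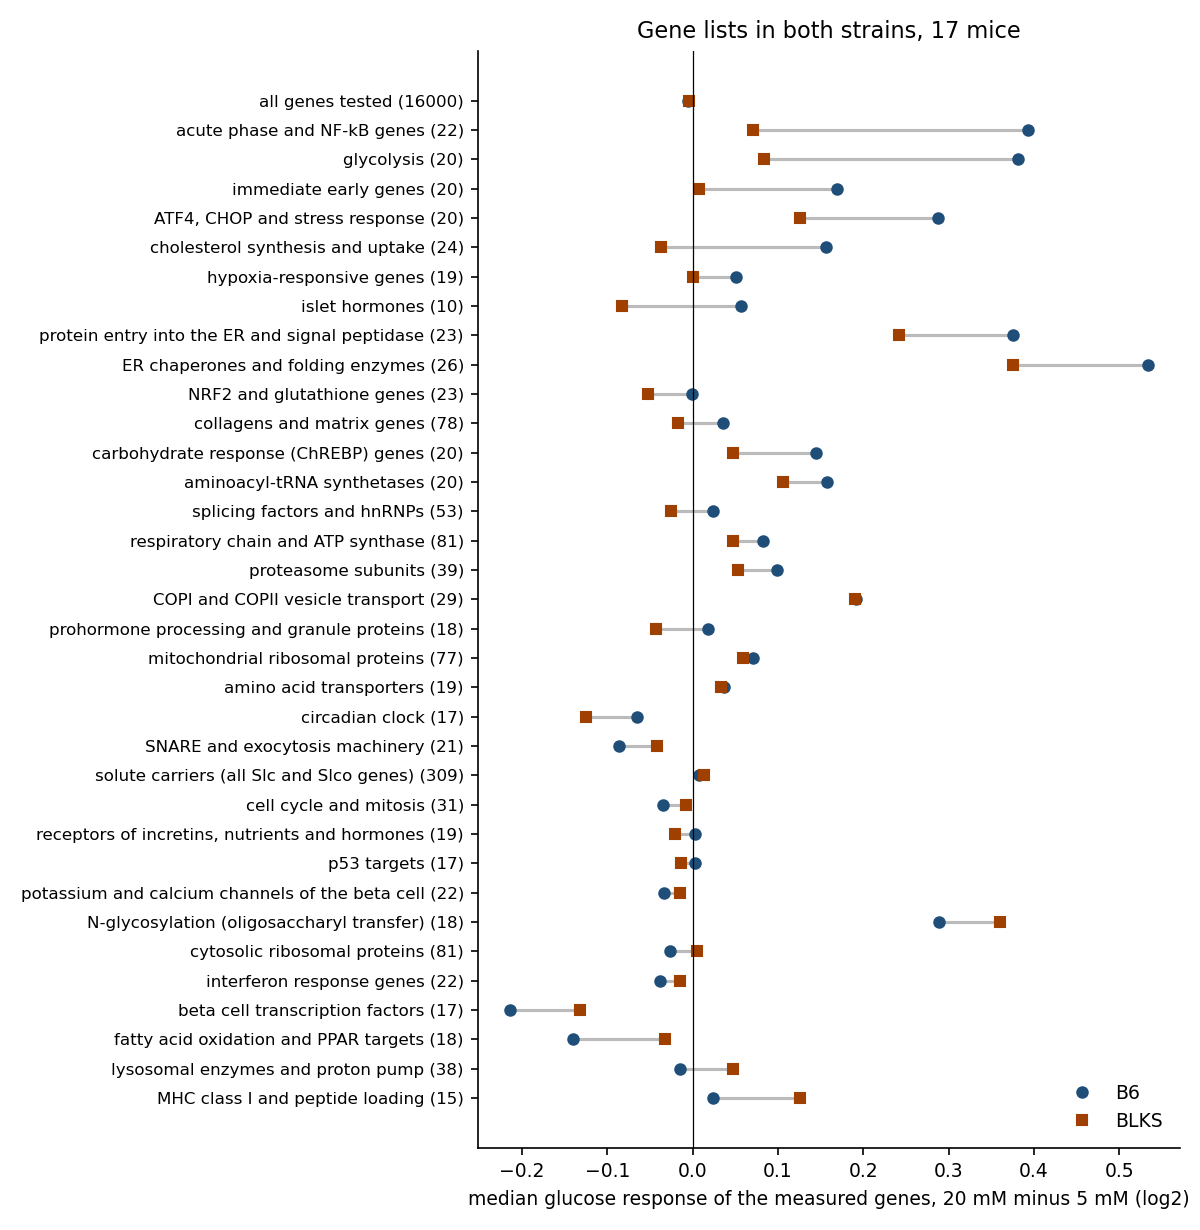
Median log2 response to glucose of each gene list in B6 (circles) and BLKS (squares), 17 mice, with the number of genes measured in brackets. ER chaperones lie highest in both strains (0.53 and 0.38), and the widest gaps are in the acute phase and NF-kB (0.39 and 0.07) and glycolysis (0.38 and 0.08) lists.

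Responses were counted as alike when a probe was called in both strains in the same direction and the 95% interval of the difference lay within 1.5-fold. With 17 mice, 1924 probes rose and 1653 fell in B6, and 1627 rose and 1277 fell in BLKS. These splits depended on scaling, and without scaling they were 811 and 1451 in B6 and 480 and 1503 in BLKS, and in the authors' unscaled log2 values they were 427 and 1484, and 380 and 340. With 19 mice, 1587 rose and 1208 fell in B6, and 1897 rose and 1503 fell in BLKS (without scaling 558 and 1046, and 676 and 1476; in the authors' values 270 and 942, and 637 and 360). Alike responses numbered 1685 probes with 17 mice, 1015 rising and 670 falling, and 1631 with 19 mice; 1362 were in both sets (80.8% of the 1685 and 83.5% of the 1631). On 1 probe per gene they were 7.23% of all genes. Of the 1685, 19 were called for a small difference with a random block. Over all probes the interval lay within 1.5-fold for 97.5%, with a median half-width of 1.12-fold, and 1736 probes were called in both strains in the same direction against 3 in opposite directions.

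**Figure D4:**
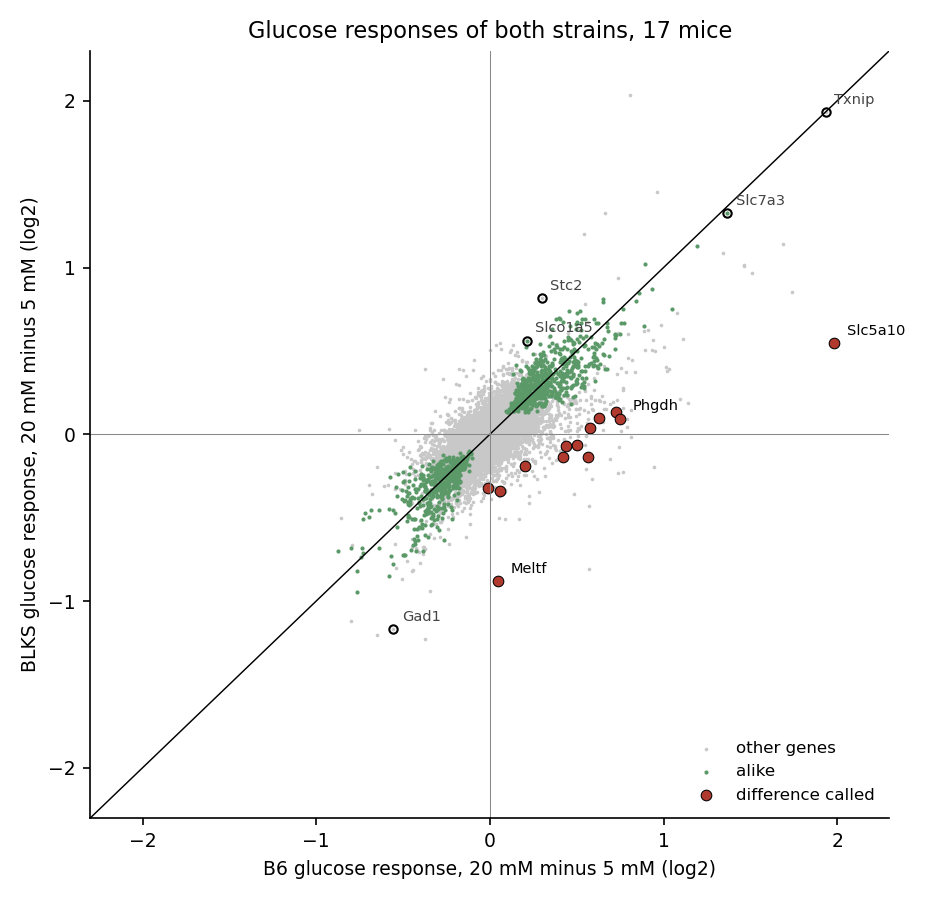
BLKS response against B6 response (log2, 17 mice), 1 point per gene, with green for alike responses, red for reported genes called for a difference and open rings for Txnip, Slc7a3, Stc2, Slco1a5 and Gad1. Green points follow the diagonal, and the red points lie below it.

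A large response in both strains was that of Txnip, an arrestin-like inhibitor of thioredoxin. Its log2 signal in B6 was 10.45, 9.83, 10.36, 9.24 and 10.31 in low and 11.85, 12.21, 12.20, 12.73 and 11.87 in high glucose. In BLKS it was 9.39, 9.12, 9.26, 8.85 and 10.11 in low and 10.88, 10.87, 10.85 and 11.73 in high glucose. Each high glucose mouse exceeded each low glucose mouse of its strain. With 17 mice Txnip rose 3.82-fold in both strains, and the difference of -0.0012 had an interval from -0.61 to 0.61, too wide to count as alike. The equal folds rest on leaving out the doubted libraries. In low glucose the library labelled B6 mouse 4 was lowest in B6 (9.24), and that labelled BLKS mouse 5 highest in BLKS (10.11). With both included, the B6 rise was larger and the BLKS rise smaller. A second Txnip probe rose 1.91-fold and 1.52-fold (-0.33). Slc7a3, a carrier of cationic amino acids, was alike with 17 mice. Its B6 values were 6.74, 7.07, 6.95, 7.68 and 6.62 in low and 8.14, 8.39, 8.37, 8.01 and 8.16 in high glucose. Its BLKS values were 7.99, 7.75, 7.79, 7.87 and 6.96 in low and 9.36, 9.13, 8.97 and 9.24 in high glucose. With 17 mice BLKS stood higher at both glucose levels, and the folds were 2.58 and 2.51, with a difference between -0.34 and 0.26. In low glucose the library labelled B6 mouse 4 lay highest in B6 (7.68), and that labelled BLKS mouse 5 lowest in BLKS (6.96). With both included, the B6 rise was smaller and the BLKS rise larger. Of 19 amino acid transporter genes measured, 3 rose alike with 17 mice and 0 with 19 mice.

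Many genes of the ER responded alike. Of 26 ER chaperones and folding enzymes, 21 rose in B6 and 19 in BLKS, and 15 were alike; the medians were 0.53 and 0.38. In the same list 23 of 26 differences lay below 0, with a median of -0.10, and 0 were called with or without a block. With 19 mice 14 of 26 lay below 0, with a median of -0.0098, and the authors' unscaled values gave -0.0074 with 17 mice. Pdia4, a disulphide isomerase, read 10.35, 10.53, 10.28, 10.65 and 10.16 in low and 11.11, 11.08, 11.09, 10.93 and 11.27 in high glucose in B6. In BLKS it read 10.76, 10.55, 10.81, 10.87 and 10.47 in low and 11.59, 11.45, 11.44 and 11.52 in high glucose. The folds were 1.71 and 1.68, with a difference between -0.25 and 0.22. Creld2, an ER stress-inducible protein, rose 1.85-fold and 1.57-fold, Hsp90b1 by 0.60 and 0.49, Dnajc3 by 0.72 and 0.60 and Pdia6 by 0.66 and 0.57, all alike. Hspa5, the chaperone BiP, rose by 0.44 in B6, and stood at 0.17 in BLKS (limma adjusted p = 0.243).

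Genes of protein entry into the ER, which thread new proteins through the membrane, included 19 of 23 that rose in B6 and 13 in BLKS, and 13 were alike. The medians were 0.38 and 0.24, and 18 of 23 differences lay below 0, with a median of -0.13. With 19 mice 17 of 23 lay below 0, with a median of -0.07. With 17 mice and no scaling 15 rose in B6 and 7 in BLKS, and in the authors' unscaled values 14 and 5, with a median difference of -0.03. H13, signal peptide peptidase, rose 1.81-fold and 1.798-fold, with a difference between -0.20 and 0.17. A second H13 probe stood at 0.24 in B6 (limma adjusted p = 0.01015) and 0.07 in BLKS (0.533). Tram1, a translocon protein, rose 1.66-fold and 1.92-fold, and another Tram1 probe rose by 0.33 and 0.42 on the log2 scale. Of 18 N-glycosylation genes, which attach sugar chains, 11 rose in B6 and 15 in BLKS, and 10 were alike, the medians being 0.29 and 0.36. Dad1, a subunit of the oligosaccharyl transferase, rose by 0.54 and 0.58, and Rpn1, another subunit, by 0.61 and 0.46. Mogs, the glucosidase that trims the attached chain, rose 1.79-fold and 1.74-fold. Of 29 genes of COPI and COPII vesicles, which carry cargo between ER and Golgi, 16 rose in B6 and 11 in BLKS, and 10 were alike, the median being 0.19 in each strain. Lman1, a cargo receptor of this route, rose 1.81-fold and 1.66-fold, and Tmed10 by 0.44 and 0.41. In these 3 lists the random block called Sec61g and Sar1b for a smaller rise in BLKS with 17 mice (adjusted p = 0.0449 and 0.00996). With 19 mice it called 0 members of each list below 0. Outside the ER, Soat1, which esterifies cholesterol, rose 2.34-fold and 1.88-fold and was alike without a block, although the random block called its difference (0.0447). The other Soat1 probes stood at -0.09 and -0.05 in B6 and at 0.14 and 0.07 in BLKS, without a call.

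Genes that fell alike included members of the clock and beta cell regulators. Of 17 circadian clock genes, 5 fell in B6 and 5 in BLKS, and the same 5 (Cry1, Cry2, Dbp, Tef and Hlf) were alike. Dbp, a clock-controlled transcription factor, fell 1.66-fold in B6 and 1.64-fold in BLKS, and Cry1, a clock repressor, stood at -0.33 in both strains. The median difference of the list was -0.0020 (0.07 in the authors' unscaled values). Mlxipl, which encodes ChREBP itself, fell 1.73-fold and 1.71-fold. Its BLKS fall was called in 27 of 27 settings at a Mlxipl probe and in 23 of 27 at another. On 1 probe per gene, the carbohydrate response list had 1 gene that fell in both strains and 0 that fell alike. Of 17 beta cell transcription factors, 6 fell in B6 and 2 in BLKS (3 and 3 with 19 mice); Neurod1 and Myt1 fell in both strains and were alike, and Nkx2-2 stood at -0.38 and -0.11. Ucn3, a peptide of mature beta cells whose spots were not saturated, fell 1.64-fold and 1.39-fold and was alike. Rbm3, a cold-inducible RNA-binding protein, fell 1.70-fold and 1.93-fold, Rab37, a GTPase of secretory vesicles, 1.83-fold and 1.63-fold, and Sult1c2, a sulphotransferase, 1.74-fold and 1.60-fold. Cryl1 fell 1.70-fold and 1.77-fold and Tsr3, an enzyme of ribosome maturation, 1.67-fold in both strains. A second Tsr3 probe went the other way, at 0.23 in B6 (limma adjusted p = 0.00283) and 0.14 in BLKS (0.0701). A second Cryl1 probe stood at -0.20 in B6 and -0.09 in BLKS, without a call in either strain. Gad1, the enzyme that makes GABA, fell 1.47-fold in B6 and 2.25-fold in BLKS, with a difference of -0.61 (limma adjusted p = 0.383; random block 0.0402), and its other probe gave -0.59 (random block 0.0567).

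**Figure D5:**
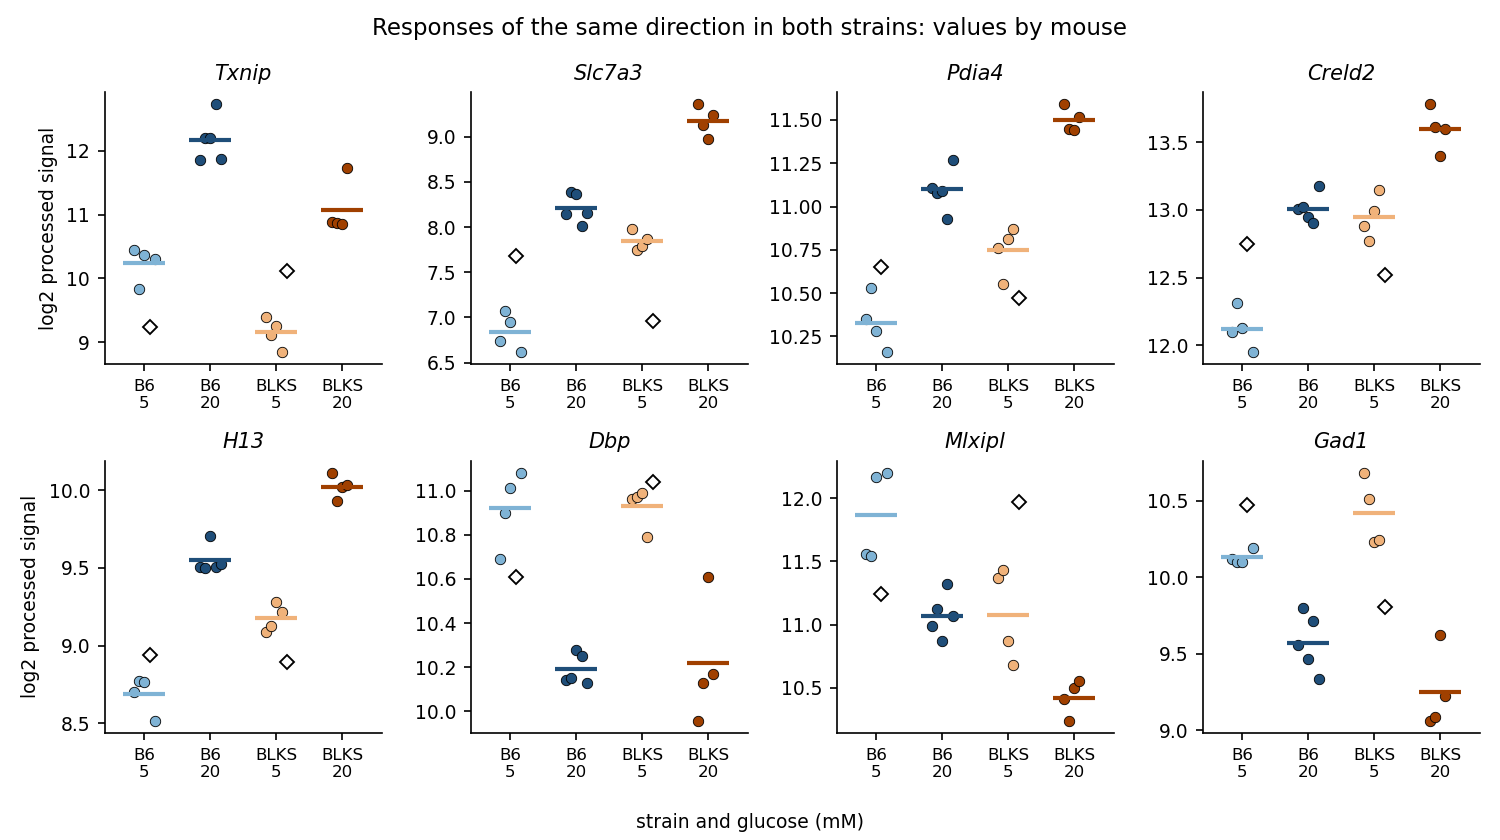
Log2 processed signal of 8 genes in each mouse, by strain and glucose, drawn as in the plot of unequal genes. Slc7a3, Pdia4, Creld2 and H13 rose and Dbp and Mlxipl fell by similar amounts in both strains; Txnip rose 3.82-fold in both with a wide interval, and Gad1 fell more in BLKS.

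Promoter windows of 300 bases around gene starts (RefSeq, GRCm38.p6) were searched on both strands for a pair of motifs, the carbohydrate response element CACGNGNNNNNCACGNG and the ER stress response element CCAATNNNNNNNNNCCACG. They are shown for Txnip, at chr3:96557707-96558006 on the plus strand, and for Creld2, at chr15:88819396-88819695 on the plus strand, with the motif in capitals (read on the opposite strand in Creld2):
Txnip: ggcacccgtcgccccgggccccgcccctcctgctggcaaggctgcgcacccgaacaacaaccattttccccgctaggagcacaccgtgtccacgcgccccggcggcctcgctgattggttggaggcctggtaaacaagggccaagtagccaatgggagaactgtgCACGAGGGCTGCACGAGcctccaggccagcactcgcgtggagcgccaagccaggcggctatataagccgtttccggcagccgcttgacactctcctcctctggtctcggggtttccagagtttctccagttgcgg
Creld2: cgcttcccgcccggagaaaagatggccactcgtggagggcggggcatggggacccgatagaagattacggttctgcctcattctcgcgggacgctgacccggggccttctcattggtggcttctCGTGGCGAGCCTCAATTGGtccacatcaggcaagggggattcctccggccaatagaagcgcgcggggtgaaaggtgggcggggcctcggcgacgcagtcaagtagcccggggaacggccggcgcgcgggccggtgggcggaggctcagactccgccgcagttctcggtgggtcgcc
The carbohydrate response element stood in 16 of 32851 windows (0.0487%), in 1 of 15 carbohydrate response genes with a window (Txnip), in 1 of 1062 alike genes and in 0 of 12 genes called for a difference. The ER stress response element stood in 39 of 32851 windows (0.119%), in 8 of 23 ER chaperone genes (34.8%: Hspa5, Hsp90b1, Calr, Canx, Pdia6, Dnajc3, Creld2 and Ero1b), in 7 of 1062 alike genes (0.659%) and in 0 of 12 genes called for a difference. A match of letters is a description of these windows and does not show binding, and 12 of the 16 genes called in either set of mice had a window.

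Other lists added single members or none. Of 24 cholesterol genes, 8 rose in B6 and 5 in BLKS, and 20 differences lay below 0 (median -0.16) without a call; Sqle, squalene epoxidase, rose by 0.32 and 0.36 and Ebp, a sterol isomerase, by 0.51 and 0.44, both alike, and Hmgcs1 stood at 0.37 and -0.07. Of 20 aminoacyl-tRNA synthetases, 8 rose in B6 and 3 in BLKS, and the 3 were alike; with 19 mice 2 rose in B6 and 4 in BLKS. MHC class I and peptide loading genes had 12 of 15 differences above 0 (median 0.14, and 0.02 with 19 mice) and no call, and lysosomal genes 29 of 38, with Smpd1 called by the random block. NRF2 targets held Txnrd1, thioredoxin reductase (-0.35, random block adjusted p = 0.00137), in a list of 23 genes with 17 differences below 0 (13 with 19 mice). Of 19 hypoxia-responsive genes, 5 rose and 1 fell in B6 and 0 were called in BLKS (5 rose and 2 fell in B6 and 2 rose in BLKS with 19 mice). In this list 14 differences lay below 0 (median -0.15), whereas Ndrg1 lay above (0.32, random block 0.0344). With 19 mice the random block called 0 of the hypoxia-responsive genes. Of 77 mitochondrial ribosomal genes, 16 rose in B6 and 13 in BLKS, and Mrpl50 was called. Without scaling 6 of them rose in B6 and 1 in BLKS, and in the authors' values 2 and 0. Of 309 solute carriers, 44 rose and 23 fell in B6 and 40 rose and 17 fell in BLKS; of these 30 rose and 8 fell alike (without scaling 22 rose and 21 fell in B6 and 20 and 15 in BLKS; in the authors' values 14 and 21, and 16 and 6). Among them Slc5a10 was the only one called without a block. With 17 mice Spp1, osteopontin, rose 3.21-fold in B6 and 2.21-fold in BLKS (-0.54, interval -1.25 to 0.16). The pair of libraries left out lay at the ends of their low glucose groups, highest in B6 (14.03) and lowest in BLKS (11.33). In the paper's own list of fold changes, Spp1 rose more in BLKS than in B6. Fkbp11, an ER prolyl isomerase, rose 2.76-fold and 2.01-fold with 17 mice (-0.46).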

How the data were processed

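Deposited files were Agilent Feature Extraction outputs of 2-colour arrays (version 9.5.3.1 in the file headers, 8.1 in the submitters' processing notes) holding processed signal intensity, for which the authors applied linear and LOWESS dye normalization without background subtraction, and the authors' log2 table, which matched unscaled log2 mean spot intensities, averaged between dyes (correlation at least 0.999946; medians per mouse 6.19 to 6.49). From log2 processed signals of 41174 probes (control spots and outlier spots left out, Aquantile scaling between arrays), dyes and a repeat of B6 low mouse 1 were averaged to 1 value per mouse. Probes well above background in all channels of at least 4 mice were kept (29326). limma 3.58.1 in R 4.3.3 fitted 4 group means, and the difference between responses was tested with Benjamini-Hochberg adjustment at 0.05. Python 3.11.15 with pandas 2.3.3 handled tables.

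Replicates were separate mice. Pairing comes from the labels, which put B6 and BLKS mice of one number on the same arrays: deviations of mice sharing arrays correlated at 0.09 to 0.70 (median 0.37, 7 pairs, 17 mice), against a median of -0.0094 for other pairs. B6 high mouse 5 and B6 low mouse 1, which share the later-scanned arrays, were counted among the other pairs (0.32). Neither block models their sharing. The array pair as a random or fixed block was an alternative, beside normexp, no scaling, quantile, no filter, the authors' table, single dyes, leaving out the later-scanned arrays, the methods' linear model and leaving out mice. The fit was tested on simulated data.

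Members and lists were chosen with earlier results of these data known. Named genes were all probes called in both sets of mice, the largest called differences with a symbol in each, the 12 rising and 8 falling alike probes with the largest responses, genes named in the study's text, and up to 4 members per list. The 5 called probes outside this rule were chosen after their values were seen, and 1 gene that the rule names is not reported here. Intensities have no depth of counts, and the number of mice limits the precision.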

Additional observations from a re-analysis of the deposited data

Results flagged for a closer look

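In 35 of 192 groups of 4 or 5 mice (18.2%), the highest or lowest mouse stood apart from the rest of its group, where chance alone gives about 1 in 20. Values are log2 signals. Of these, 15 were the library labelled B6 low mouse 4, highest for Phgdh (11.70, 10.94 and 9.90 at 3 probes), Cntn1 (8.82), Nptx2 (7.77), Gad1 (10.14 and 10.47), Spp1 (14.03), S100a9 (6.43), Lcn2 (8.71), Stx12 (10.68) and TC1043667 (5.97), and lowest for Lpin1 (7.04 and 6.76) and Soat1 (7.23). Another 11 were the library labelled BLKS low mouse 5, lowest for Phgdh (10.77, 9.503 and 9.05), Pqlc3 (6.18), Cntn1 (7.93), Slc7a3 (6.96), Rbm3 (11.84), Spp1 (11.33) and Stx12 (10.11), and highest for Sult1c2 (8.37) and Lpin1 (7.56). These are the same libraries whose strain probes went against their labels. The remaining 9 were BLKS high mouse 4 at Txnip (11.73) and AK015074 (9.40), BLKS high mouse 3 at Smpd1 (11.89), Mogs (12.25), Sult1c2 (7.63) and Spp1 (13.81), B6 high mouse 5 at Smpd1 (11.76), B6 high mouse 3 at H13 (9.71) and BLKS low mouse 1 at Hnrnpa1 (10.72).

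Among the reported probes, the responses of the strains differed by limma's test of the difference itself at 26 values, given as BLKS minus B6 on the log2 scale. With 17 mice these were Slc5a10 (-1.43), Meltf (-0.93), Meox1 (-0.70), Phgdh (-0.65, -0.65 and -0.61), AK015074 (-0.60), Pqlc3 (-0.56), Cntn1 (-0.56), Lpin1 (-0.54 and -0.51), Abca3 (-0.54), Mrpl50 (-0.53), Stx12 (-0.40), Ago2 (-0.39) and Hnrnpa1 (-0.31). With 19 mice they were Slc5a10 (-1.54), Meltf (-0.96), Klf10 (-0.71), Meox1 (-0.60), Mrpl50 (-0.50), Hnrnpa1 (-0.32), Slco1a5 (0.46 and 0.36), Smpd1 (0.28) and TC1043667 (0.42, a measured value from a probe not well above background in low glucose).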

How the results depend on the processing

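Of the counts of calls recomputed under alternatives, 174 stayed within 1.5 times the reported count and 52 did not. For the difference with 17 mice (17 probes), quantile normalization gave 27, the authors' log2 values 1, leaving out the later-scanned arrays 30, the random replicate block of array pairs 272, the fixed block 8, the methods' linear model of dye values 403, and leaving out single mice 12 to 33 (33 without B6 high mouse 5). For the difference with 19 mice (12 probes), no scaling gave 5, the authors' values 4, Cy5 alone 6, Cy3 alone 7, the random block 236, the fixed block 47, the methods' model 213, and leaving out single mice 1 to 16, within 1.5 times the reported count only without B6 high mouse 5 (16) or BLKS high mouse 3 (9). For the B6 response with 17 mice (3577), no scaling gave 2262, the authors' values 1911, the methods' model 6253, and leaving out mice 2545 to 3700; with 19 mice (2795) these were 1604, 1212, 5548 and 1924 to 3041. For the BLKS response with 17 mice (2904), the authors' values gave 720, Cy5 alone 1913, the methods' model 5490, and leaving out mice 1864 (without BLKS low mouse 2) to 3007; with 19 mice (3400) no scaling gave 2152, the authors' values 997, the methods' model 6640, and leaving out mice 2288 to 3656. For alike probes with 17 mice (1685), no scaling gave 984, the authors' values 454, Cy5 alone 990, the methods' model 3341, and leaving out mice 1213 to 1738; with 19 mice (1631) these were 932, 435, 1005, 3438 and 1242 to 1769. The methods' linear model treats each dye value of a mouse as a separate observation.

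Among single genes, 341 recomputed values kept their side of the threshold, 90 lost the call, 3 gained it and 8 turned sign, and the cause was not tested. Those that turned sign were the near-zero differences of Slc7a3 (authors' values 0.0599, fixed replicate block 0.0271, leaving out mice -0.12 without B6 low mouse 2 to 0.0352 without B6 low mouse 5) and Txnip (normexp 0.000048, quantile 0.0175, authors' values 0.13, Cy3 alone 0.11, leaving out mice -0.22 without BLKS high mouse 4 to 0.14 without B6 high mouse 4), all with 17 mice. The authors' values moved the median difference of all genes from 0.0013 to 0.06 and turned above 0 those of aminoacyl-tRNA synthetases (0.04), splicing factors (0.04), mitochondrial ribosomal genes (0.08), the circadian clock (0.07), COPI and COPII genes (0.07), amino acid transporters (0.07), prohormone processing (0.07), the respiratory chain (0.06), the proteasome (0.06) and the carbohydrate response list (0.01). No scaling turned that of N-glycosylation genes to -0.02.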
